A study of Mus musculus with 8 samples.

Results

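The proteasome genes were read here in mouse esophageal epithelial cells sorted by their content of autophagic vesicles. The members are the 48 rows of the deposited count table, among 55276 gene symbols, whose symbol starts with Psma, Psmb, Psmc, Psmd, Psme, Psmf or Psmg and ends in a number. They cover the core particle, the immunoproteasome, the regulatory particle, activators, the inhibitor and assembly chaperones. Of the 48, 46 had enough counts to be tested, among 17344 genes tested in all. The 2 others were Psma8, the testis form of an alpha subunit, with 17 counts over all libraries, and Psmb11, the thymus catalytic subunit, with 2.

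The proteasome is the chamber that degrades proteins tagged with ubiquitin. Its core particle is a barrel of stacked rings, with alpha subunits that gate the entry and beta subunits, some of them proteases, inside. The regulatory particle caps the barrel: its base of ATPases unfolds the substrate and its lid removes the ubiquitin chain. Cells exposed to interferon exchange the catalytic beta subunits for immunoproteasome forms and make the PA28 cap, which favours peptides for MHC class I. Proteasome and autophagy are the main routes of protein degradation in a cell, and the transcription factor Nfe2l1 (also called Nrf1) is known to drive proteasome genes when proteasome activity falls.

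The cells came from C57BL6 mice of 14 to 15 weeks, with no transgene, deletion or drug named in the labels, whose treatment field holds the Cyto-ID gate. Epithelium was peeled from the esophagus, dissociated, and stained for integrin beta-1, with DAPI for dead cells and with Cyto-ID, a dye that gathers in autophagic vesicles. Live cells positive for integrin beta-1 were sorted into a Cyto-ID Low and a Cyto-ID High fraction, and 4 animals (Female1, Female2, Male1, Male2) each gave 1 bulk library of each. The labels call the cells squamous, and the series' title refers to basal cells. Below, 4 values in a row always follow the order Female1, Female2, Male1, Male2.

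The libraries held 26285150 to 28599954 counts in Low and 27486049 to 29301054 in High. All 8 of 8 basal keratinocyte markers were lower in High (median log2 fold change −2.63) and 7 of 7 suprabasal markers were higher (median 3.22), under total-count scaling too. Krt4 and Krt13, keratins of the suprabasal layers, took 12.1% ± 1.48 (SD, n = 4) of High counts and 1.71% ± 0.77 (SD, n = 4) of Low counts. Levels are given as counts per 1000000 (CPM) after TMM scaling (a trimmed mean of log ratios between libraries), which assumes that most genes do not differ. Scaling by the total count alone moved the median gene from −0.09 to −0.64 on the log2 scale, so directions are given under both scalings for the proteasome genes named below. The part of the shift from basal to suprabasal markers in the proteasome values was not tested. In bulk libraries, fewer cells of a type and less RNA per cell cannot be told apart. Leukocyte, fibroblast, endothelial and muscle markers were lowest in High Male2 (fibroblast sum 38.4 CPM against 149 to 497 CPM elsewhere), and stomach markers summed to 638 and 2590 counts in the Low and High libraries of Female2 against 7 to 20 in the other 6 libraries.

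Proteasome genes were mostly higher in the Cyto-ID High cells. At an adjusted p under 0.05 in edgeR's quasi-likelihood test, 28 of the 46 tested members were higher (60.9%) and 1 was lower (2.2%). Over all 17344 genes, 23.4% were called higher and 25.3% lower, or 48.7% in either direction. The median log2 fold change of the members was 0.43, against −0.09 over all genes. With the animal as a block, 29 members were higher, the added one being Psmb4 (adjusted p = 0.0349), against 25.4% of all genes higher and 28.5% lower. Under total-count scaling 6 members were higher and 10 lower, where 12.6% of all genes were higher and 49.1% lower. The members' median was then −0.12, which stood 0.51 above the median gene, and the main scaling put it 0.52 above. On the TMM scale the 4 animals moved in the direction of the call in all 29 called members. The calls come from these same libraries, so this is no separate evidence. Under total-count scaling, 11 of the 28 higher members had a negative log2 fold change.

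The summed counts of the 48 members were a near-constant share of each library. They made up 0.362%, 0.355%, 0.336% and 0.347% of the counts in Low and 0.379%, 0.370%, 0.356% and 0.337% in High. The share was higher in High in Female1, Female2 and Male1 and lower in Male2, and the groups overlapped. On the TMM scale the sum was 2878 ± 119 CPM (SD, n = 4) in Low and 4411 ± 487 CPM (SD, n = 4) in High, with no overlap. The groups' CPM did not overlap for 30 of the 46 tested members (65.2%), against 48.6% of all genes.

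**Figure D1:**
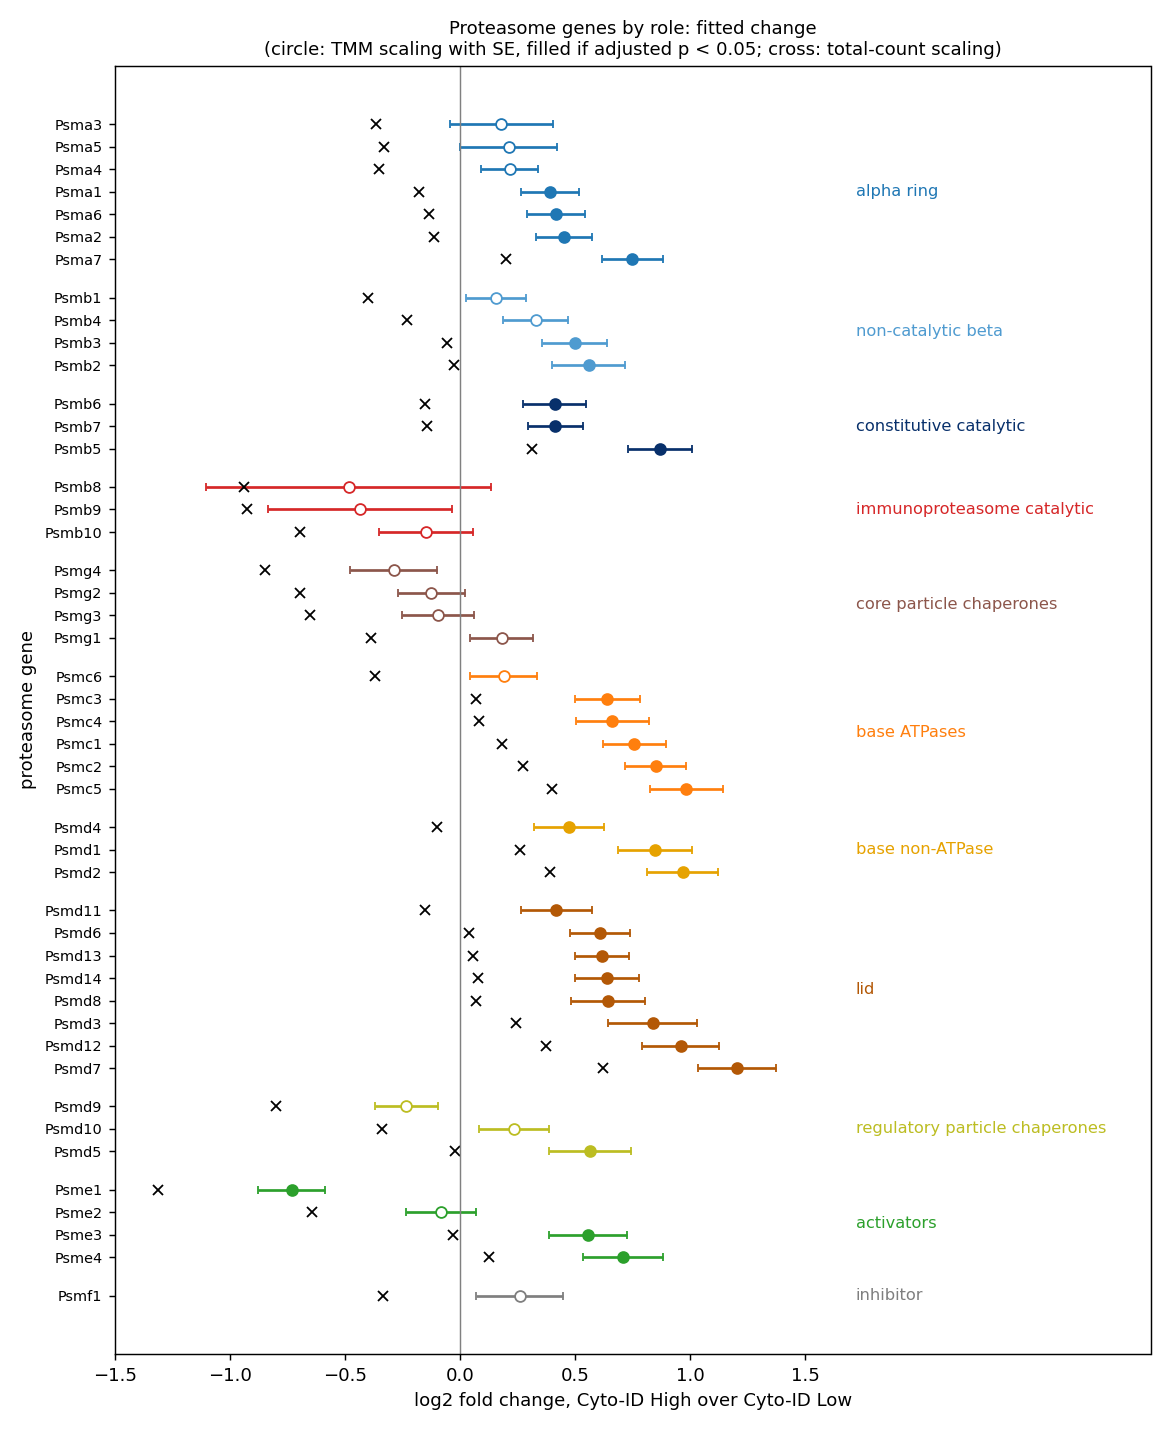
The 46 tested proteasome genes by role, with the fitted log2 fold change of High over Low on the x axis; circles are the TMM-scaled fit with its standard error, filled where the adjusted p is under 0.05, and crosses are the total-count fit. All 8 lid genes are filled circles right of 0, the 3 immunoproteasome genes are open circles left of 0, and Psme1 is the filled circle at −0.73.

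The regulatory particle carried the highest values. Of its 17 tested genes 16 were higher in High and none lower, with a median log2 fold change of 0.66, and under total-count scaling 6 were higher and none lower, with a median of 0.08. The exception was Psmc6, a base ATPase, at 0.19 (adjusted p = 0.323), which turned to −0.37 under total-count scaling. The 6 that were higher under both scalings were the base ATPases Psmc2 and Psmc5, the base scaffolds Psmd1 and Psmd2, and the lid genes Psmd7 and Psmd12. These 6 also kept their call in each of the 30 alternatives to the main analysis. Counts of the 17 genes made up 0.204%, 0.200%, 0.190% and 0.195% of the Low libraries and 0.229%, 0.231%, 0.218% and 0.219% of the High libraries, so the groups did not overlap even without TMM.

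Psmd7 (chr8:107580381-107588464, minus strand, GRCm38) encodes the lid subunit that pairs with the deubiquitinase Psmd14. Its level was 94.0, 90.8, 87.2 and 101 CPM in Low and 177, 241, 182 and 261 CPM in High. Every High library lay above every Low library, and High Female2 and High Male2 were highest. The log2 fold change was 1.20 (SE 0.17, adjusted p = 0.000291), a 2.30-fold difference and the only member beyond 2-fold, and it was 0.62 under total-count scaling.

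Psmc5 (chr11:106256154-106263120) is a ring ATPase of the base. Its CPM were 88.6, 94.5, 88.4 and 95.7 in Low and 155, 187, 156 and 228 in High. On the TMM scale the Low libraries were close together and the High ones spread upward, led by Male2. The fitted log2 fold change was 0.98 (SE 0.16, adjusted p = 0.000683), and 0.40 under total-count scaling.

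Psmd2 (chr16:20651652-20663414) is a large scaffold of the base that docks ubiquitin receptors. It measured 174, 167, 170 and 166 CPM in Low and 282, 345, 302 and 397 CPM in High, again without overlap. The difference was 0.97 on the log2 scale (SE 0.15, adjusted p = 0.000609), and 0.39 under total-count scaling. Psmd12 (chr11:107479484-107504362), a lid scaffold, measured 86.9, 90.9, 87.2 and 96.0 CPM in Low and 137, 207, 154 and 203 CPM in High. Its log2 fold change was 0.96 (SE 0.17, adjusted p = 0.00112), and 0.37 under total-count scaling. On the TMM scale the High libraries of Female2 and Male2 stood above those of Female1 and Male1 in both genes. The High libraries of Female2 and Male2 also had the smallest TMM factors. Before scaling, the High counts of Psmd2 were 7314, 7916, 7911 and 7719.

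Within the regulatory particle, 5 of 6 base ATPases were higher (median 0.71), as were 3 of 3 non-ATPase subunits of the base (median 0.84) and 8 of 8 lid genes (median 0.64). Under total-count scaling 2, 2 and 2 of these genes were higher. The lid ran from Psmd11 at 0.42, to Psmd7 at 1.20. The call of Psmd11 was lost when Low Female2, High Female2, Low Male2 or High Male2 was left out (adjusted p = 0.0504 to 0.115), and its value turned to −0.15 under total-count scaling. Psmd14, the lid's deubiquitinase, was at 0.64 (adjusted p = 0.00393), but only 0.08 under total-count scaling. Psmd4, a ubiquitin receptor of the base, was at 0.47 (adjusted p = 0.0268) and turned to −0.10 under total-count scaling; without High Male2 its adjusted p was 0.0786 and without High Female2 0.0558.

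The core particle had lower values. Of the 14 alpha and beta genes of the standard barrel, 9 were higher and none lower, with a median log2 fold change of 0.41, and under total-count scaling none were higher and 2 were lower, with a median of −0.15. In the alpha ring, 4 of 7 were higher (Psma1, Psma2, Psma6 and Psma7), led by Psma7 at 0.75 (SE 0.13, adjusted p = 0.00113), which stayed positive at 0.20 under total-count scaling. Psma1, Psma2 and Psma6 were between 0.39 and 0.45 and turned to −0.18, −0.11 and −0.14 under that scaling. The call of Psma1 was lost without High Female2 (adjusted p = 0.0679), Low Male1 (0.0599) or High Male2 (0.0565), and that of Psma6 without Low Female1, Low Female2, High Female2, Low Male1 or High Male1 (0.0517 to 0.0586). With no filter on low counts, 8 of the 28 higher members lost their call: Psma1 (adjusted p = 0.200), Psma2 (0.0960), Psma6, Psmb3 (0.0664), Psmb6, Psmb7 (0.152), Psmd4 and Psmd11. Without both libraries of Male1, in a fit that also left out the sex covariate, Psma1, Psma6, Psmb3, Psmb6, Psmb7, Psmd4, Psmd5 and Psmd11 lost it (0.0542 to 0.0902). Upper-quartile scaling ended the calls of Psma6 (0.0691), Psmb6 (0.0643) and Psmd11 (0.0757). Among the beta subunits without protease activity, Psmb2 (0.56) and Psmb3 (0.50) were higher, and both sat just under 0 with total counts, at −0.03 and −0.06. Psmb1 (0.15) and Psmb4 (0.33) did not pass, and they turned to −0.40 and −0.23 with total counts, where Psmb1 was called lower. Psmb4 was called higher with size factors by relative log expression (adjusted p = 0.0379), in DESeq2 (0.0163) and with 4 of 7 other TMM reference libraries (0.0227 to 0.0483).

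Psma3 and Psma5 share sequence with other listed genes, and most reads went to those copies. Gm13835 matches 23.4% of the Psma3 transcript at 98% identity or more, and it held 21754 counts over the 8 libraries against 3591 for Psma3. Gm8394 matches 76.5% of the Psma5 transcript and held 6104 counts against 1893. How the counting assigned such reads is not given in the sources used here, so the values of Psma3 (0.18) and Psma5 (0.21), neither of which passed, are uncertain. They turned to −0.37 and −0.33 under total-count scaling. The sum of Psma3 and Gm13835 was 98.2 ± 14.1 CPM (SD, n = 4) in Low and 129 ± 13.9 CPM (SD, n = 4) in High, higher in all 4 animals by 0.39 ± 0.29 (SD) on the log2 scale, but the mean difference was −0.17 ± 0.28 (SD) under total-count scaling. The sum of Psma5 and Gm8394 was higher in 3 of 4 animals, by 0.11 ± 0.28 (SD), and at −0.46 ± 0.36 (SD) with total counts.

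The ratio of the particles does not depend on how libraries are scaled. It was chosen after the values of both were seen, and so it is given without a test. The log2 ratio of regulatory to standard core particle counts was 0.87, 0.99, 0.94 and 0.90 in Low and 1.05, 1.32, 1.17 and 1.48 in High. It was higher in High in each animal, by 0.17, 0.33, 0.23 and 0.57, and the groups did not overlap. The mean difference was 0.33 ± 0.18 (SD, n = 4), and 0.25 without High Male2. With the copies of Psma3, Psma5 and Psmb5 added to the core particle the difference was 0.33 ± 0.19 (SD). The genes of the regulatory particle have longer transcripts (median 1636 bases) than those of the core (median 1162.5). Over all genes of at least 10 CPM, the median log2 fold change was −0.03 for transcripts under 1000 bases, 0.16 for 1000 to 1500, 0.18 for 1500 to 2000, 0.09 for 2000 to 3000 and 0.01 for longer ones. Within the animals, the median of the 1500 to 2000 class exceeded that of the class under 1000 by 0.05, 0.24, 0.16 and 0.36, in the same order of animals by size as the change of the ratio. In the same order of classes, the 14 core genes number 5, 6, 1, 2 and 0 and the 17 regulatory particle genes 0, 4, 8, 4 and 1. The part of transcript length in the ratio was not tested.

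**Figure D2:**
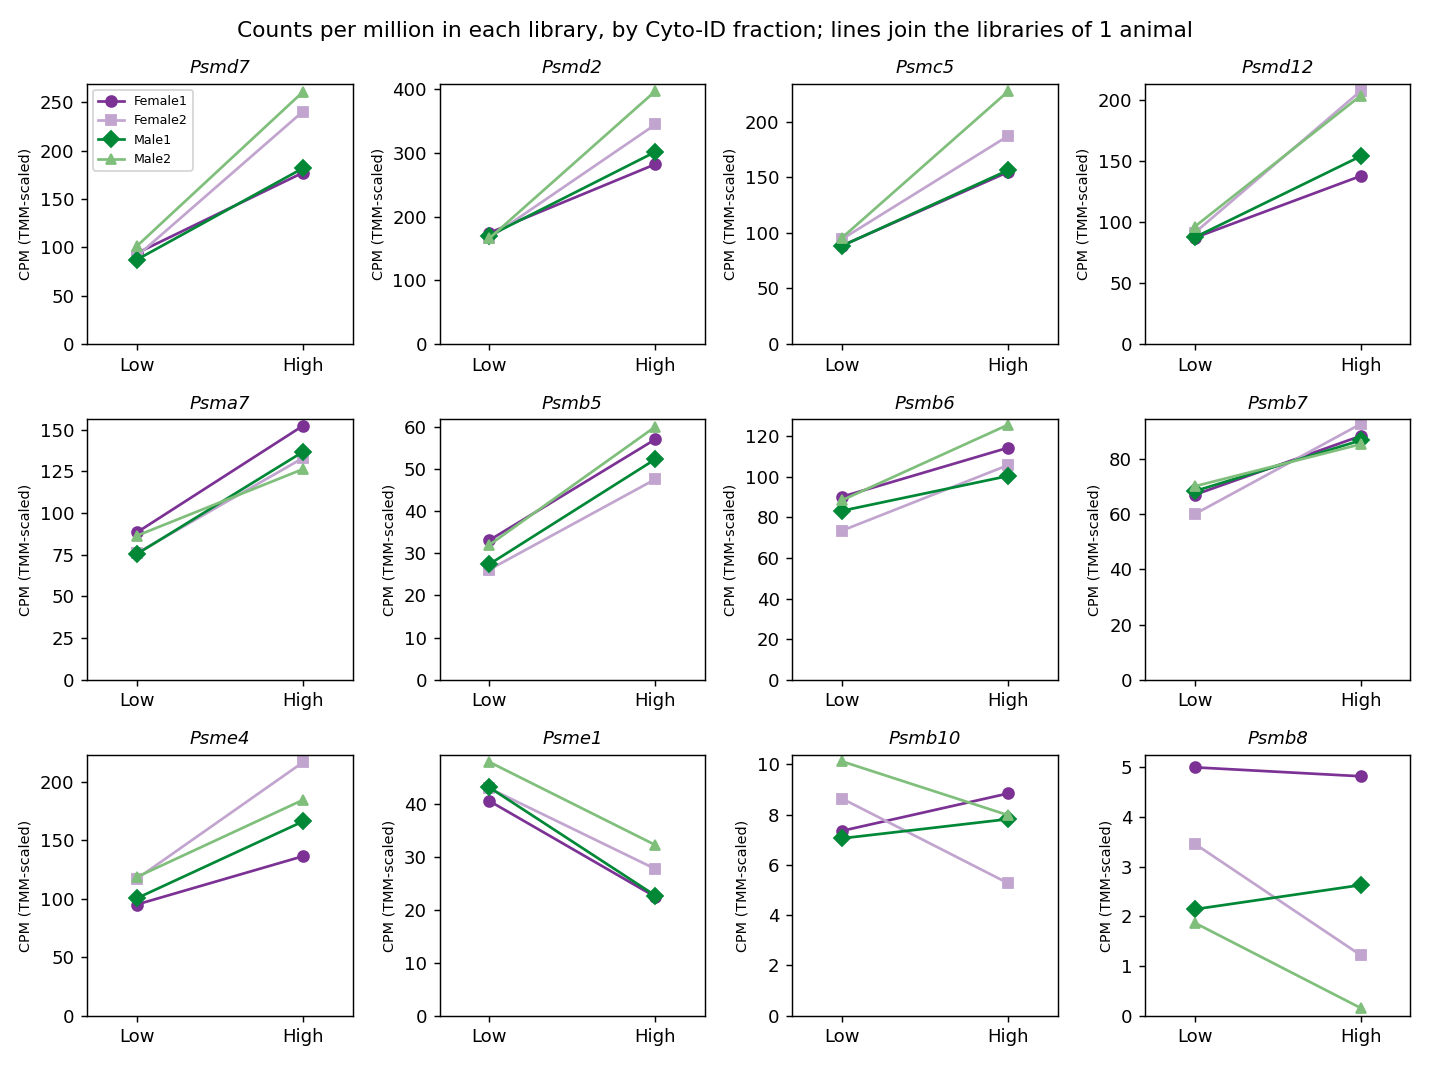
TMM-scaled CPM (y axis, from 0) of 12 proteasome genes in the Low and High library of each animal, joined by lines. Psmd7, Psmd2, Psmc5, Psmd12 and Psmb5 rise in each animal, Psme1 falls in each, and Psmb8 and Psmb10 go up in some animals and down in others.

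The 3 constitutive proteases were higher in High, while their immunoproteasome counterparts were not called in either direction. Psmb5 (chr14:54614119-54618022, minus strand), the chymotrypsin-like protease, measured 33.1, 26.1, 27.4 and 32.0 CPM in Low and 57.0, 47.5, 52.3 and 60 CPM in High. The groups were far apart and all animals moved by a like amount, 0.78 to 0.93 on the log2 scale. The fitted value was 0.87 (SE 0.14, adjusted p = 0.00062), and 0.31 under total-count scaling, where it did not pass (adjusted p = 0.0831). A near-identical copy, Gm3375, matches 88.4% of the Psmb5 transcript but held only 1474 counts against 9068, and the sum of both was higher in High by 0.82 ± 0.07 (SD, n = 4), and by 0.25 ± 0.23 (SD) with total counts.

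Psmb6, the caspase-like protease, measured 90.2, 73.5, 83.2 and 88.4 CPM in Low and 114, 106, 100.4 and 126 CPM in High. Its log2 fold change was 0.41 (SE 0.14, adjusted p = 0.0308) and turned to −0.15 under total-count scaling. Its call was lost without High Female1, Low Female2, Low Male1 or High Male2 (adjusted p = 0.0519 to 0.0836). Psmb7, the trypsin-like protease, measured 66.9, 59.9, 68.2 and 70.0 CPM in Low and 88.2, 92.5, 86.6 and 85.2 CPM in High. It was at 0.41 (SE 0.12, adjusted p = 0.0171), and at −0.15 under total-count scaling. In both the High libraries lay above the Low ones on the TMM scale. An exon of Nek6 overlaps 35.1% of the Psmb7 transcript, and Nek6 held 1787 counts against 17196.

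Psmb8 (chr17:34197721-34201454), the interferon-inducible form of the chymotrypsin-like protease, measured 5.00, 3.46, 2.14 and 1.87 CPM in Low and 4.82, 1.22, 2.63 and 0.154 CPM in High. The High value of Male2 rests on 3 counts, and the groups overlapped. The fitted log2 fold change was −0.48 (SE 0.62, adjusted p = 0.568), and −0.94 under total-count scaling. Psmb9, the form that replaces Psmb6, measured 3.43, 2.28, 1.77 and 2.08 CPM in Low and 3.09, 1.31, 2.06 and 0.617 CPM in High. It was at −0.44 (SE 0.40, adjusted p = 0.412), and −0.93 under total-count scaling. Psmb10, the form that replaces Psmb7, measured 7.35, 8.63, 7.05 and 10.1 CPM in Low and 8.84, 5.27, 7.82 and 7.97 CPM in High. It was at −0.15 (SE 0.20, adjusted p = 0.595), and its −0.70 under total-count scaling passed (adjusted p = 0.0341). In all 3 genes Male1 went up and Male2 went down, Female2 went down, and Female1 split. Part of Psmb9 overlaps Tap1 on the other strand (15.7% of the transcript), so its low counts are uncertain; Gm20496, which overlaps Psmb8 on the other strand, had no counts.

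Per length of transcript, the immunoproteasome forms were rare in both fractions. Psmb8 was at 5.81% ± 2.42 (SD, n = 4) of the level of Psmb5 in Low and 2.25% ± 1.94 (SD, n = 4) in High. Psmb9 was at 1.68% ± 0.45 (SD, n = 4) of Psmb6 in Low and 0.956% ± 0.568 (SD, n = 4) in High. Psmb10 was at 11.1% ± 1.94 (SD, n = 4) of Psmb7 in Low and 7.54% ± 1.71 (SD, n = 4) in High.

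The ratio of each immunoproteasome form to its constitutive partner was lower in High in all 4 animals. The log2 ratio of Psmb8 to Psmb5 changed by −0.83, −2.33, −0.64 and −4.12, that of Psmb9 to Psmb6 by −0.49, −1.30, −0.05 and −2.17, and that of Psmb10 to Psmb7 by −0.13, −1.33, −0.19 and −0.62. The changes of Female2 and Male2 were the largest for each pair, and that of Psmb9 in Male1 was near 0. In High Male2 there were 0.257 Psmb8 counts per 100 Psmb5 counts (exact 95% binomial interval 0.0530 to 0.754, counting error only), against 5.86 in Low Male2 (4.46 to 7.57).

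Markers of leukocytes, which make much of the immunoproteasome, moved with the levels of Psmb8 and Psmb9 among the High libraries. The 11 markers summed to 140, 91.7, 96.4 and 122 CPM in Low and 125, 45.4, 87.2 and 15.9 CPM in High. The High libraries of Female2 and Male2, where Psmb8 and Psmb9 were lowest, also had the lowest sums, and Cd3e had no counts in these 2 libraries. Psmb10 did not follow: its 7.97 CPM in High Male2 lay next to the 7.82 CPM of High Male1. Fibroblast markers were also lowest in these 2 High libraries (149 and 38.4 CPM, against 463 and 329 CPM in High Female1 and High Male1), as were endothelial (8.88 and 2.16 CPM) and muscle markers (15.2 and 1.29 CPM). Among the Low libraries Psmb8 did not follow the leukocyte sum: Low Male2 had the lowest Psmb8 (1.87 CPM) with a sum of 122 CPM, and Low Female2 the lowest sum (91.7 CPM) with a Psmb8 of 3.46 CPM. Of the 9 leukocyte markers tested, 1 was higher (Cd52) and 1 lower (H2-Ab1), with a median of −0.42. Of the Langerhans cell markers 4 of 5 were lower, with sums of 215 to 283 CPM in Low and 88.6 to 112 CPM in High. Those sums were mostly Epcam (148 ± 15.6 CPM in Low and 73.0 ± 12.8 CPM in High, SD, n = 4) and Mfge8 (103 ± 15.4 and 23.7 ± 6.73 CPM), which epithelial cells also express. The defining marker Cd207 was at 1.13 ± 0.58 CPM in Low and 0.234 ± 0.076 CPM in High. The part of leukocytes and of these other cells in the immunoproteasome values was not tested.

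**Figure D3:**
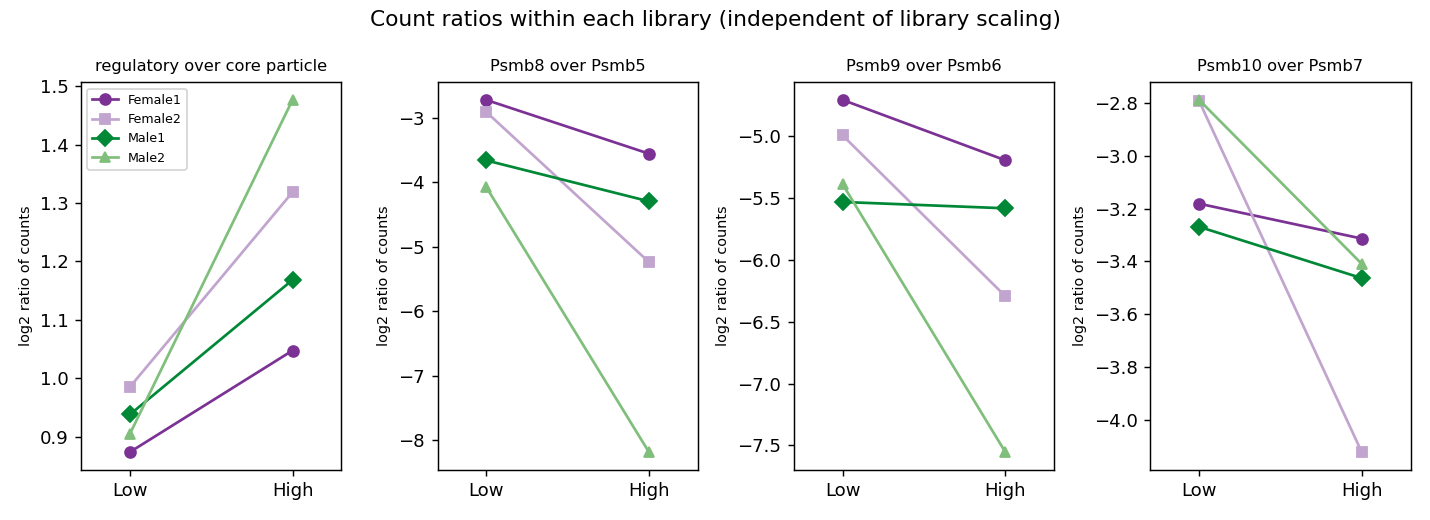
Log2 ratios of counts within each library (y axis, separate scale in each panel) for the regulatory over the standard core particle and for each immunoproteasome form over its constitutive partner, with 1 line per animal from Low to High. The particle ratio rises in each animal, by 0.17 to 0.57, and each catalytic ratio falls, most steeply for Psmb8 over Psmb5 in Male2.

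The activators differed in direction. Psme1 (chr14:55578123-55581529), the alpha chain of the interferon-inducible PA28 cap, was the 1 proteasome gene called lower on the TMM scale. It measured 40.6, 43.1, 43.2 and 48.0 CPM in Low and 22.5, 27.8, 22.7 and 32.3 CPM in High, and the groups did not overlap. Emc9 overlaps it by 14 bases on the other strand. Its log2 fold change was −0.73 (SE 0.15, adjusted p = 0.00243), and −1.32 under total-count scaling, and it was called in each of the 30 alternatives. Psme1 was also the only called member whose sign was opposite to the median of its role group (0.24 for the 4 activators).

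Psme2, the beta chain of the same cap, measured 14.1, 10.5, 11.7 and 11.4 CPM in Low and 10.6, 13.1, 10.7 and 10.6 CPM in High. The groups overlapped, and the log2 fold change was −0.08 (SE 0.15, adjusted p = 0.698), and −0.65 under total-count scaling, where it was called lower. A copy, Psme2b, matches 82.5% of its transcript and held 1886 counts against 2658, so its level is uncertain. The sum of Psme2 and Psme2b was 19.9 ± 1.63 CPM (SD, n = 4) in Low and 20.0 ± 1.77 CPM (SD, n = 4) in High, higher in 2 of 4 animals, and the mean difference with total counts was −0.56 ± 0.15 (SD).

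Psme4 (PA200), a nuclear activator of the barrel, measured 95.0, 117, 100.3 and 119 CPM in Low and 136, 216, 166 and 184 CPM in High. It was at 0.71 (SE 0.17, adjusted p = 0.00762), and at 0.13 under total-count scaling. Psme3 (PA28 gamma), the nuclear member of the PA28 family, measured 99.3, 89.0, 104 and 99.9 CPM in Low and 111, 166, 127 and 172 CPM in High. It was at 0.55 (SE 0.17, adjusted p = 0.0212) and at −0.03 under total-count scaling, and its call was lost without High Female2 (adjusted p = 0.0705) or High Male2 (adjusted p = 0.0611). Both nuclear activators had no overlap between groups on the TMM scale. Psmf1, an inhibitor of the core particle, measured 18.8, 24.7, 20.6 and 23.8 CPM in Low and 20.6, 28.6, 21.6 and 34.6 CPM in High. Its groups overlapped, and its 0.26 did not pass (SE 0.19, adjusted p = 0.3) and turned to −0.34 under total-count scaling.

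None of the 4 core particle chaperones Psmg1 to Psmg4, which guide the alpha ring together, was called. Their median log2 fold change was −0.11, and under total-count scaling all 4 were lower, with a median of −0.67. Their sum was 41.7 ± 1.95 CPM (SD, n = 4) in Low and 40.8 ± 1.73 CPM (SD, n = 4) in High, so the groups overlapped. Of the chaperones of the regulatory particle, Psmd5 was higher at 0.56 (SE 0.18, adjusted p = 0.0259), though −0.02 under total-count scaling, while Psmd10 (0.23) and Psmd9 (−0.23) did not pass and were at −0.34 and −0.80 under that scaling. Without High Female2 the adjusted p of Psmd5 was 0.0972, and it was also above the threshold without Low Female1 (0.0567), Low Male2 (0.0604) or High Male2 (0.0688). Psmd9 and all Psmg genes were among the 10 genes lower under total-count scaling, with Psma4, Psmb1, Psmb10, Psme1 and Psme2.

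Of 19 further partners of the proteasome, 12 were higher and none lower (median 0.52), and under total-count scaling 2 were higher and 4 lower (median −0.07). With the animal as a block, 13 were higher and 1 lower. Paaf1 was not analysed here. Pomp, the maturation factor that brings the beta ring together, measured 77.3, 68.4, 67.7 and 79.0 CPM in Low and 120, 133, 114 and 121 CPM in High. It was higher by 0.74 (SE 0.13, adjusted p = 0.00103), and at 0.18 under total-count scaling. The ubiquitin receptor Adrm1 was at 0.88 (adjusted p = 0.00131) and its partner deubiquitinase Uchl5 at 0.88 (adjusted p = 0.000842). Both stayed positive under total-count scaling, at 0.31 and 0.32, without passing.

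Usp14, the other deubiquitinase that docks on the base, was at 0.52 (adjusted p = 0.0427) and turned to −0.07 under total-count scaling, and it lost its call when any library but High Female1 or High Male1 was left out (adjusted p = 0.0519 to 0.115), and with upper-quartile scaling (0.0510) or limma-voom (0.0514). Sem1, a small lid subunit outside the Psm names, was at 0.22 and did not pass (adjusted p = 0.245), turning to −0.32 under total-count scaling. The largest change of this list was that of Zfand2a, a stress-induced zinc finger protein that binds the proteasome. It measured 29.6, 18.3, 24.9 and 26.3 CPM in Low and 78.0, 57.0, 64.5 and 82.7 CPM in High, a log2 fold change of 1.51 (SE 0.19, adjusted p = 0.000128) that was 0.95 under total-count scaling.

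Among 15 known regulators of proteasome genes 7 were higher and 3 lower (median 0.39), and under total-count scaling 3 were higher and 7 lower (median −0.20). Nfe2l1, the factor named above, measured 188, 162, 178 and 189 CPM in Low and 317, 393, 409 and 499 CPM in High. The groups did not overlap, and the log2 fold change was 1.16 (SE 0.16, adjusted p = 0.000244), or 0.59 under total-count scaling. Its relative Nfe2l3 had the largest change of the list, from 3.80, 6.24, 2.24 and 6.58 CPM in Low to 37.4, 63.4, 38.5 and 47.7 CPM in High. That was 3.30 on the log2 scale (SE 0.34, adjusted p = 4.68e-05), and 2.72 under total-count scaling. The relative Nfe2l2 (Nrf2) was at 0.39 and did not pass (adjusted p = 0.125), and it turned to −0.20 under total-count scaling.

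Of the steps that make Nfe2l1 active, the protease Ddi2 was at 0.55 (adjusted p = 0.0118), the glycanase Ngly1 at 0.54 (adjusted p = 0.0233) and the segregase Vcp at 0.84 (adjusted p = 0.00189). Under total-count scaling Vcp was at 0.26 and still passed, while Ddi2 and Ngly1 turned to −0.02 and −0.04. The 3 lower genes were Nfya (−0.77) and Nfyb (−1.07), subunits of the CCAAT-binding factor, and Keap1 (−0.51), the adaptor that holds Nfe2l2 back. These 3 were lower under total-count scaling too, at −1.32, −1.62 and −1.10, but the call of Keap1 was lost without High Female1, Low Female2, High Female2 or High Male1 (adjusted p = 0.0557 to 0.101). It was also lost with size factors by relative log expression (0.0557) and with 4 of 7 other TMM reference libraries (0.0558 to 0.0664).

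**Figure D4:**
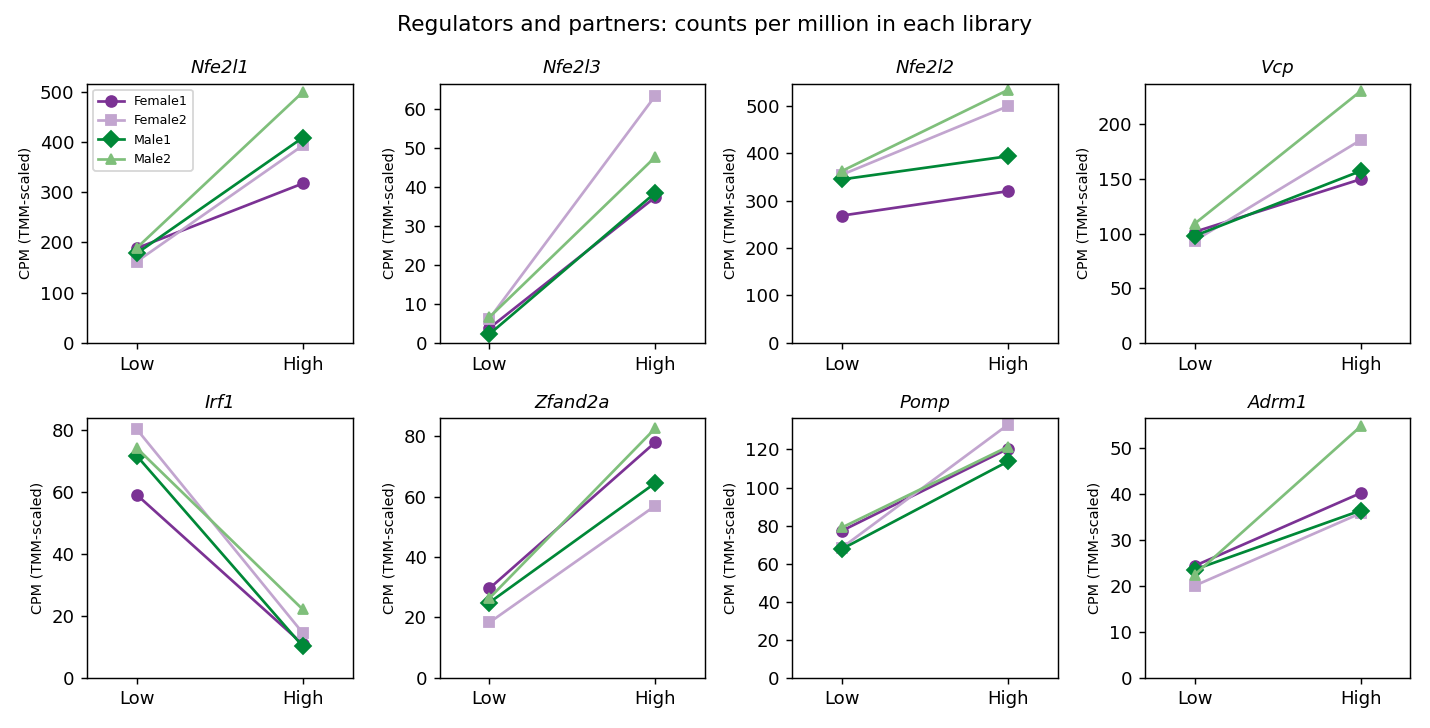
TMM-scaled CPM (y axis, from 0) of 8 regulators and partners in the Low and High library of each animal. Nfe2l1, Nfe2l3, Vcp, Zfand2a, Pomp and Adrm1 rise in each animal and Irf1 falls in each, from 59.1 to 80.2 CPM in Low to 10.1 to 22.0 CPM in High.

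In the Vcp complex, which pulls ubiquitylated proteins out of membranes and assemblies, 8 of 11 genes were higher and none lower (median 0.75), and under total-count scaling 4 were higher and 1 lower (median 0.20). Faf1, a ubiquitin-binding cofactor, led at 1.05 (SE 0.16, adjusted p = 0.000456), and 0.47 under total-count scaling. A further list held 6 genes of ubiquitin, activating enzymes and a related protein: Ubb, Rps27a, Uba1, Uba3, Uba6 and Ubap2. Only Uba1, the main activating enzyme, passed, at 0.83 (adjusted p = 0.00271) and 0.24 under total-count scaling. The ubiquitin genes Ubb (0.39) and Rps27a (−0.43) did not pass, and they were at −0.21 and −0.98 under total-count scaling. With that scaling none of the 6 was higher and 2 were lower (median −0.32), Rps27a and Uba3 (−0.44, adjusted p = 0.0206), a subunit of the enzyme that activates Nedd8.

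The immunoproteasome belongs to the genes of interferon response and MHC class I processing. Of 13 listed, 6 were higher, 2 lower and 5 not called (median 0.27), where 23.4% of all genes were higher and 25.3% lower, and under total-count scaling 3 were higher and 5 lower (median −0.31). The lower ones were Irf1, a transcription factor of immunoproteasome genes, and B2m, the class I light chain, at −0.41 (−0.96 with total counts), whose call was lost when any library but High Female1 or Low Female2 was left out (adjusted p = 0.0743 to 0.0966). The B2m call was also lost with size factors by relative log expression (0.0653), in DESeq2 (0.0554), with no filter on low counts (0.0552), with no covariate (0.0512) and with 4 of 7 other TMM reference libraries (0.0663 to 0.129). Irf1 was at −2.33 (SE 0.24, adjusted p = 5.37e-05), and −2.93 under total-count scaling. The heavy chain H2-D1 was at 1.26 and Tapbp, the class I loading factor, at 1.23, and both were also called under total-count scaling, at 0.70 and 0.65.

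Other stoichiometric complexes give a scale for these values. The COP9 signalosome, a relative of the lid that acts on cullin ligases, had 4 of 10 genes higher and none lower (median 0.28), led by Cops4 at 0.90 (adjusted p = 0.00109) and 0.32 under total-count scaling. The CCT chaperonin had none of 8 higher and 1 lower, Cct4 at −0.84 (adjusted p = 0.000899; −1.40 with total counts), with a median of 0.05, and all 8 were lower under total-count scaling. The median gene was at −0.09, so the Vcp complex stood 0.84, the regulatory particle 0.75, the standard core particle 0.50, the COP9 signalosome 0.37 and CCT 0.14 above it. With total counts these distances were 0.83, 0.72, 0.49, 0.33 and 0.12.

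A dependence on sex could not be judged. With 2 animals a sex, the interaction of sex and fraction was called for 0% of the genes tested by edgeR's quasi-likelihood test, and for no proteasome gene. At an unadjusted p under 0.05 it held 19 genes, none of them proteasome genes, where 5% of the genes tested would be 867. With so few low p-values, the absence of calls says little. That count moved to 49 to 1197 when 1 library was left out: it was 190 without Low Female1, 221 without Low Male2 and 1197, with Psmb8 among them, without High Male1. None passed the adjusted threshold in these fits.

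The starts of these genes were searched for the short sequences that the regulators above bind, and windows are shown for the genes on which the results turn. RefSeq start regions (GRCm38.p6, 250 bases before to 50 after the start) were matched for 40 of the 48 members; Psma8, Psmb1, Psmb2, Psmb7, Psmc3, Psmd3, Psmd7 and Psmg2 were not among them. Both strands were read. The antioxidant response element core TGACNNNGC, which Nfe2l1 and its relatives bind, was found in 6 of the 40 (15.0%) and in 13.99% of all 27025 genes. Its members were Psmb5, Psmb6, Psmc6, Psmd9, Psmd12 and Psme4, of which Psmb5, Psmb6, Psmd12 and Psme4 were called higher and Psmc6 and Psmd9 were not. Those of Psmc6 and Psmd9, with matches that began at −227 and −31 relative to the start, are not shown. The windows of the members called higher read as follows, 5′ to 3′ on the gene's strand, with the match in capitals:
Psmb5 (chr14:54617994-54618082, minus strand): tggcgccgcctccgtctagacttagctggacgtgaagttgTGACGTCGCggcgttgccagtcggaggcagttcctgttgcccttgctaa
Psmb6 (chr11:70525308-70525386, plus strand): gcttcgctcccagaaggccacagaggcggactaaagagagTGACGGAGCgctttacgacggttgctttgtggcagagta
Psmd12 (chr11:107479278-107479329, plus strand): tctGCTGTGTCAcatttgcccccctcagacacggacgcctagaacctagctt
Psme4 (chr11:30771728-30771804, plus strand): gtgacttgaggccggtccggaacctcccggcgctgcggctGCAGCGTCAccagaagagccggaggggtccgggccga

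The match in Psmb5 and Psmb6 lay on the gene's strand and in Psmd12 and Psme4 on the opposite one. It began 47, 9, 247 and 7 bases before the start of Psmb5, Psmb6, Psmd12 and Psme4. The box CCAAT, bound by Nfya and its partners, was found in 14 of the 40 members (35.0%) and in 41.06% of all genes. The share of members with either sequence was thus close to that over all genes.

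For the interferon-related genes, the interferon-stimulated response element core (GAAA, any 2 bases, GAAA) was found in 5 of the 40 members (12.5%) and in 3.99% of all genes, and the gamma-activated site TTCNNNGAA in 3 (7.5%) and in 9.55% of all genes. The first was found in Psmb3, Psmd4, Psmd9, Psme1 and Psmg4, and the other in Psmb8, Psmd2 and Psmg1. The windows of the member called lower and of the inducible protease are shown, with the match in capitals:
Psme1 (chr14:55578463-55578523, plus strand): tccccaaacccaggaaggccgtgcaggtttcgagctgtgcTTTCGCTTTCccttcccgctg
Psmb8 (chr17:34198058-34198146, plus strand): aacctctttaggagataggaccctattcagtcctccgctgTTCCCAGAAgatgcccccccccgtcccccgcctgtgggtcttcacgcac

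The match in Psme1 lay on the opposite strand and began 9 bases after the start, and that in Psmb8 began 97 bases before it. A match of letters shows neither binding nor its absence. Each sequence was found both in members called higher and in members not called. Psme1, the member called lower, held only the interferon-stimulated response element core. Of the interferon response elements, Psmb3 and Psmd4 were called higher, Psme1 lower, and Psmd9 and Psmg4 neither.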

How the data were processed

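Bulk RNA of 8 sorted libraries, 4 per Cyto-ID fraction, was read from 1 table of raw counts per gene symbol that the authors deposited; the unit follows from its values, whole numbers with unequal totals. Per the submitters' processing notes, STAR 2.7.3, DESeq2 and GRCm38 were used, and the counting tool, annotation and strandedness are not given in the sources used here. Reads of overlapping or near-identical genes may therefore have been split or dropped. Each of the 8 columns names its animal and fraction.

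The members, lists and tests were chosen with earlier results of these data known. In R 4.3.3, edgeR 4.0.16 (filterByExpr by fraction, TMM, glmQLFit and glmQLFTest, sex as covariate, two-sided, Benjamini-Hochberg over 17344 genes, threshold 0.05) compared High with Low. Only the main fit and the fit with the animal as a block were tested on simulated counts. Few genes were changed there, equally up and down, so the simulation does not test the scaling. Full values were given to the catalytic subunits, the activators and inhibitor, the 5 members with the largest called change in each direction, any member called against its group's median, and fixed partners with the most changed gene of each list. Other genes were named after their values were seen. A few listed genes are not reported here. Log2 ratios of 2 genes add 1 count to each. Transcript lengths, positions and overlaps come from GENCODE M21, and copies were found by BLAST at 98% identity over at least 100 bases. Levels per length are counts per kilobase scaled to the same sum in each library.

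Alternatives were RLE, upper-quartile and total-count scaling, other filters, robust dispersion, DESeq2 1.42.0, limma-voom (limma 3.58.1), other covariates, each library or animal left out and, added after the data were seen, each other library as TMM reference. The fits without an animal also had no sex covariate. Both fractions of an animal carry its name, so the libraries are paired by animal; deviations from the fraction means correlated within an animal at 0.43, 0.32, −0.02 and 0.28, and between animals at −0.37 to 0.35. Animals are separate, so spreads cover biological and counting error together.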

Additional observations from a re-analysis of the deposited data

Results flagged for a closer look

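Of 102 groups of 4 libraries examined, 1 per fraction for each proteasome gene and each ratio or sum, 3 held an outlying library. There the gap to the nearest neighbour, divided by the range of the 4 libraries, exceeded Dixon's critical value of 0.829. Chance gives about 1 in 20. Psmd4 was low in Low Female2, at 6.481 log2 CPM against 6.76 to 6.786 in the other Low libraries. It was high in High Male2, at 7.528 log2 CPM against 7.011 to 7.081. Psme2 was high in High Female2, at 3.724 log2 CPM against 3.417 to 3.426.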

How the results depend on the processing

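Total-count scaling moved most results. Under it 6 members were higher and 10 lower, and the medians were −0.12 for all members, −0.15 for the standard core particle and 0.083 for the regulatory particle, while the summed CPM differed by 0.042 on the log2 scale. Other list medians turned to −0.18 (alpha ring), −0.14 (non-catalytic beta), −0.15 (constitutive proteases), −0.34 (regulatory particle chaperones), −0.34 (activators), −0.34 (inhibitor), −0.068 (partners), −0.20 (regulators), −0.32 (ubiquitin and E1), −0.31 (interferon and MHC class I), −0.31 (COP9 signalosome) and −0.51 (CCT). Of 20 members that turned negative, those called in either fit were Psma1 (−0.18), Psma2 (−0.11), Psma4 (−0.36), Psma6 (−0.14), Psmb1 (−0.40), Psmb2 (−0.026), Psmb3 (−0.058), Psmb6 (−0.15), Psmb7 (−0.15), Psmd4 (−0.10), Psmd5 (−0.024), Psmd11 (−0.15), Psme3 (−0.031) and Psmg1 (−0.39), and the 6 called in neither were Psma3 (−0.37), Psma5 (−0.33), Psmb4 (−0.23), Psmc6 (−0.37), Psmd10 (−0.34) and Psmf1 (−0.34). Other listed genes that turned and were called in either fit were Usp14 (−0.068), Ube3c (−0.041), Txnl1 (−0.11), Fbxo7 (−0.15), Ddi2 (−0.021), Ngly1 (−0.037), Foxo4 (−0.44), Stat3 (−0.58), Uba3 (−0.44), Ufd1 (−0.55), Ubxn4 (−0.0082), Tap1 (−0.55), H2-K1 (−0.0075), Pdia3 (−0.040), Gps1 (−0.55), Cops3 (−0.45), Cops6 (−0.087), Cops8 (−0.42), Tcp1 (−0.36), Cct3 (−0.44), Cct6a (−0.49), Cct7 (−0.47) and Cct8 (−0.54); 11 called in neither also turned. The cause was not tested.

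Upper-quartile scaling called 25 members higher and 2 lower, the added lower one being Psmd9 (adjusted p = 0.0479). In the 29 alternatives other than total counts, 20 to 30 members were higher, with 20 when Male1 was left out and 20 with no filter on low counts, which ended 8 calls (adjusted p = 0.0664 to 0.200). The animal as a replicate block gave 29 members higher and 1 lower, Psmb4 being the only changed call among them. In the other lists the block called 13 partners higher and 1 lower, and 8 regulators higher. It also called 5 COP9 signalosome genes higher and 3 interferon and MHC class I genes lower. Of the 46 tested members, 13 had the same call in all 30 alternatives, 19 changed only with total counts and 13 elsewhere, of which 12 changed with total counts too (the other was Psmb4); Psmb8 was filtered out at 10 counts in every library, so it has no value there.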
